A study of Mus musculus with 9 samples.

Results

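The genes described here mark the mature, migratory state of dendritic cells (DC), the cells that carry antigen from tissues to lymph nodes and present it to T cells. They were taken as a named set of 10 genes, Ccr7, Ccl17, Ccl22, Fscn1, Cd83, Cd200, Marcks, Cacnb3, Nudt17 and Il4i1, and looked up by symbol among the probe sets that the platform annotation gives exactly 1 symbol. Of these, 8 were found, with 16 probe sets, among 12393 genes measured on the array. Cacnb3 and Nudt17 were not matched and are not analysed here. Expression was measured on 9 Affymetrix arrays of biotin-labelled total RNA, 3 from untreated cells, 3 from cells treated with TSA and 3 from cells treated with butyrate. All cells were Flt3L-elicited DC, that is, spleen cells selected on CD11c magnetic beads from mice 6 to 8 weeks old that had been given B.16 tumors expressing Flt3L, the growth factor that expands DC. Both agents inhibit histone deacetylases: TSA (trichostatin A) is a hydroxamate and butyrate a fatty acid made by gut bacteria. The labels give no dose, duration or mouse strain, no maturation stimulus, and no statement that replicates came from separate mice, so the p-values measure only the spread between these samples, which may be technical.

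A DC that matures, whether after sensing a microbe or spontaneously, stops sampling its surroundings and switches on a shared set of genes. Ccr7 guides it along the chemokines of lymphatic vessels, fascin and other actin regulators reshape it into a moving cell with long processes, and Ccl17 and Ccl22 attract T cells that carry Ccr4. The same state brings surface molecules that stimulate or restrain T cells, and NF-kB, with its Relb subunit in particular, is a known driver of it.

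Of the 8 measured genes, 7 fell with each inhibitor. Ccl22 fell 6.33-fold and Ccr7 4.21-fold with TSA, and with butyrate Cd200 fell 4.74-fold and Ccr7 4.03-fold. With TSA 7 genes were called lower and 1 higher, by limma's moderated test with a Benjamini-Hochberg adjusted p under 0.05 over all 12393 genes, and 5 of those 7 fell 2-fold or more. Over all genes, 21.0% were called lower and 26.3% higher with TSA, and 3.28% were called at least 2-fold lower. With butyrate 7 were called lower and 0 higher, 5 of them at least 2-fold, against 24.8%, 33.6% and 4.60% of all genes. The 2-fold counts rest on the brightest probe set of each gene. With TSA Fscn1 passed on its brightest probe set (3.11-fold) and not on the others (1.72-fold, 1.75-fold and 1.135-fold). With butyrate Fscn1 passed narrowly (2.02-fold, and 1.55-fold on its next brightest), and Marcks did not (1.82-fold, and 2.90-fold on 1415972_at). The median change of the 8 genes was −1.70 log2 units with TSA and −1.23 with butyrate, beside 0.03 and 0.08 for all genes. All 3 treated arrays lay below all 3 untreated ones for 7 genes in each treatment, as they did for 23.9% of all genes with TSA and 26.2% with butyrate. Of the 16 probe sets, 14 were called lower with TSA and 13 with butyrate, against 19.4% and 23.2% of all probe sets. The same 7 genes were called lower in both, against 17.8% of all genes, but both treatments were set against the same 3 untreated arrays, so their falls are not independent of each other. In bulk RNA, fewer mature cells and less of this RNA per cell cannot be told apart.

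**Figure D1:**
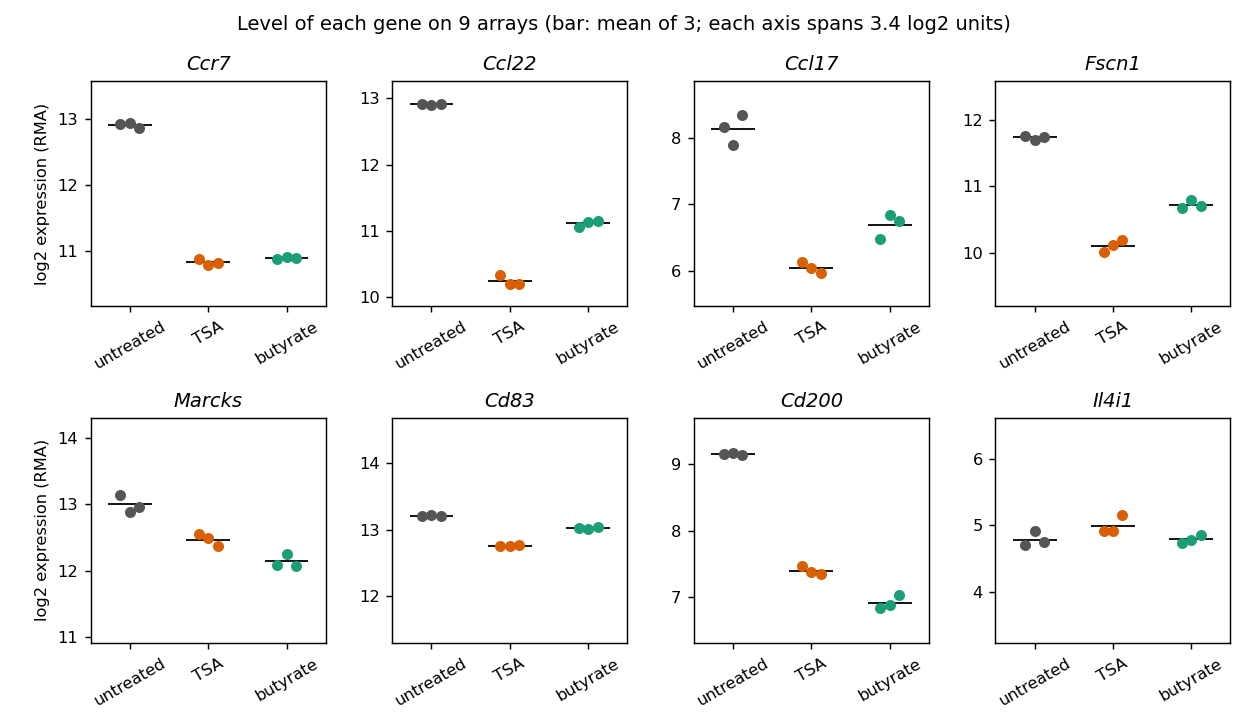
Level of each measured gene (y axis, log2 RMA expression; each panel spans the same number of log2 units) on the 3 untreated, 3 TSA and 3 butyrate arrays, with a point for each array and a bar for the mean of 3. All treated arrays lie below all untreated arrays for 7 genes, whereas Il4i1 stays between 4.69 and 5.15 throughout.

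Ccr7, the receptor for Ccl19 and Ccl21 that DC need to enter lymph nodes, lies on chromosome 11 (GRCm38.p6, 99144199 to 99155077) and had 1 probe set, 1423466_at. Its log2 level was 12.93, 12.94 and 12.86 on the untreated arrays, 10.88, 10.80 and 10.83 with TSA, and 10.89, 10.92 and 10.90 with butyrate. The treated arrays formed a narrow band about 2 log2 units below the untreated ones. The difference from untreated was −2.08 ± 0.047 (limma standard error, n = 3 arrays per group, as for all such errors here; adjusted p = 1.14e-09) with TSA and −2.01 ± 0.047 (adjusted p = 7.83e-10) with butyrate.

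Ccl22 and Ccl17 encode the chemokine pair that binds Ccr4 and draws activated and regulatory T cells to mature DC. They are neighbours on chromosome 8, at 94745684 to 94751388 and 94809380 to 94812038. Ccl22 (1417925_at) was at 12.91, 12.90 and 12.92 in untreated cells, 10.34, 10.20 and 10.20 with TSA, and 11.05, 11.13 and 11.15 with butyrate. The 3 groups were separate, with TSA lowest. The change with TSA, −2.66 ± 0.053 (adjusted p = 7.25e-10), ranked 23 among the falls of 12393 genes, and that with butyrate was −1.80 ± 0.053 (adjusted p = 3.27e-09).

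Ccl17 (1419413_at) was a dimmer probe set with more spread between arrays. It read 8.17, 7.90 and 8.35 in untreated cells, 6.13, 6.03 and 5.97 with TSA, and 6.48, 6.83 and 6.75 with butyrate. The order of the groups was the same as for Ccl22, with no overlap. Ccl17 changed by −2.10 ± 0.119 with TSA (adjusted p = 2.19e-07) and by −1.45 ± 0.119 with butyrate (adjusted p = 2.29e-06).

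Fscn1 encodes fascin, which bundles actin filaments into the dendrites of mature DC, and lies on chromosome 5 (142960355 to 142973189). Its brightest probe set, 1416514_a_at, read 11.77, 11.70 and 11.75 in untreated cells, 10.01, 10.12 and 10.19 with TSA, and 10.68, 10.80 and 10.70 with butyrate. The groups again ran from untreated through butyrate to TSA without overlap. The changes were −1.63 ± 0.058 with TSA (adjusted p = 1.56e-08) and −1.01 ± 0.058 with butyrate (adjusted p = 1.63e-07).

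The size of the Fscn1 fall depended on the probe set. In a fit over all 22626 probe sets that are not controls, the next brightest, 1448378_at, changed by −0.78 with TSA and −0.63 with butyrate, and the dimmer 1416515_at by −0.81 and −0.66. The dim 1416516_at changed by −0.18 with TSA (limma adjusted p = 0.0377) and was not called with butyrate (−0.01, adjusted p = 0.918). The mean of the 4 probe sets fell by 0.85 with TSA and by 0.58 with butyrate, so the direction was kept in both and the size was not. The mean levels of these probe sets over the 9 arrays were 10.86, 8.32, 5.24 and 5.72 in the order named; the part of brightness in the difference between them was not tested.

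Marcks, a substrate of protein kinase C that links the membrane to actin, lies on chromosome 10 (37133243 to 37138926) and had 6 probe sets. The brightest, 1456028_x_at, read 13.14, 12.89 and 12.96 in untreated cells, 12.55, 12.49 and 12.37 with TSA, and 12.09, 12.25 and 12.07 with butyrate. Here butyrate gave the lowest levels, and the groups did not overlap. The changes were −0.53 ± 0.080 with TSA (adjusted p = 2.64e-04) and −0.86 ± 0.080 with butyrate (adjusted p = 6.17e-06). The next 4 probe sets by brightness fell in both treatments and by more with butyrate than with TSA, from −0.42 to −0.97 with TSA and from −0.80 to −1.54 with butyrate. The dimmest of the 6, 1437034_x_at, with a mean level of 7.31, was not called (−0.22, limma adjusted p = 0.345 with TSA; −0.28, adjusted p = 0.199 with butyrate).

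**Figure D2:**
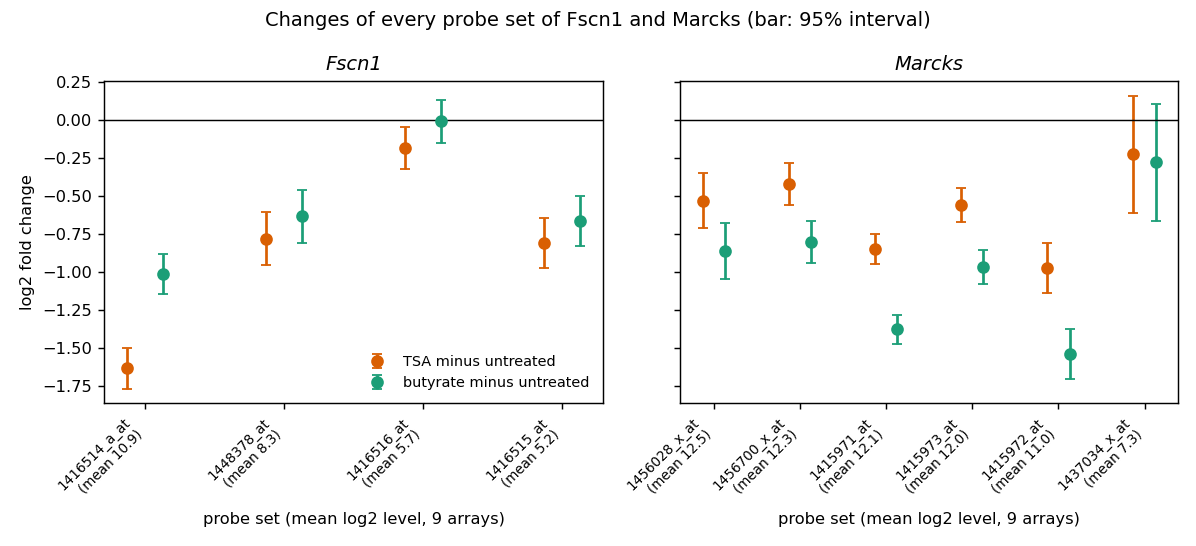
Log2 fold change (y axis) of all 4 probe sets of Fscn1 and all 6 of Marcks (x axis, brightest first), as limma's estimate with its 95% interval, for TSA and butyrate against untreated. Fscn1 falls more with TSA on its brightest probe set (−1.63 against −1.01), and 5 Marcks probe sets fall more with butyrate.

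Cd83, an immunoglobulin superfamily surface molecule that stabilises MHC class II and Cd86 on mature DC, lies on chromosome 13 (43785112 to 43803133; 1416111_at). Its level was 13.20, 13.22 and 13.21 in untreated cells, 12.75, 12.76 and 12.77 with TSA, and 13.03, 13.01 and 13.04 with butyrate. The arrays of a group lay within a few hundredths of a log2 unit, and the groups were separate although the falls were small. The changes were −0.45 ± 0.041 with TSA (adjusted p = 6.18e-06) and −0.18 ± 0.041 with butyrate (adjusted p = 0.00302). With hybridization spike-ins the butyrate change of Cd83 was −0.60 and with poly-A spike-ins −0.53, and with poly-A spike-ins its TSA change was not called (−0.45, limma adjusted p = 0.101).

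Cd200, a ligand that restrains myeloid cells through Cd200r1, lies on chromosome 16 (45382111 to 45409060; 1448788_at). It read 9.16, 9.17 and 9.14 in untreated cells, 7.46, 7.37 and 7.34 with TSA, and 6.83, 6.88 and 7.02 with butyrate. As for Marcks, butyrate arrays were the lowest, with no overlap. The changes were −1.77 ± 0.059 with TSA (adjusted p = 1.07e-08) and −2.24 ± 0.059 with butyrate (adjusted p = 1.58e-09).

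Il4i1, a secreted amino acid oxidase that dampens T cells, lies on chromosome 7 (44836288 to 44840809; 1437612_at). It was dim in every group, at 4.69, 4.91 and 4.74 untreated, 4.92, 4.91 and 5.15 with TSA, and 4.74, 4.78 and 4.85 with butyrate, below the 25th percentile of gene means on these arrays (5.29). It was 0.21 ± 0.079 higher with TSA (adjusted p = 0.0495), with all 3 TSA arrays above the untreated ones, and was not called with butyrate (0.01 ± 0.079, adjusted p = 0.945). With hybridization spike-ins Il4i1 was called lower with butyrate (−0.41, limma adjusted p = 0.00118), and with poly-A spike-ins it was not (−0.34, adjusted p = 0.189). The call of Il4i1 with TSA was lost without untreated replicate 1 (0.17, limma adjusted p = 0.158) or replicate 3 (0.19, adjusted p = 0.121) or TSA replicate 3 (0.13, adjusted p = 0.185), without any 1 of the butyrate arrays (adjusted p = 0.0576 to 0.0646), and with 4 other scalings of the arrays (adjusted p = 0.0716 to 0.625), TSA and untreated arrays alone (0.075) or a trended prior (0.0729). It was also lost in the fit over all probe sets (adjusted p = 0.0583). A further probe set, which the annotation gives to both Il4i1 and Il4i1b, was left out by the rule.

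**Figure D3:**
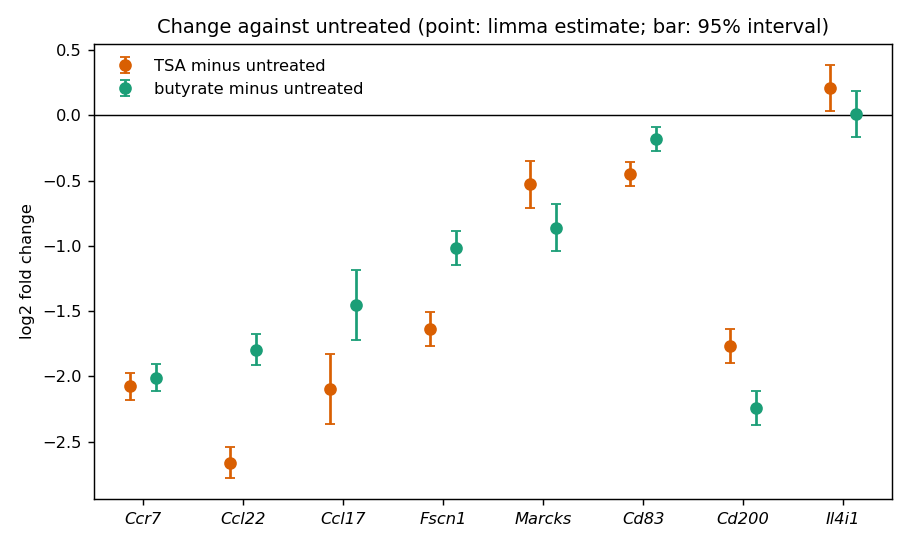
Log2 fold change against untreated (y axis) of the 8 genes (x axis) with TSA and with butyrate, as limma's estimate with its 95% interval. On the deposited scale Ccl22, Ccl17, Fscn1 and Cd83 lie lower with TSA (Cd83 changes order with spike-in scaling), Marcks and Cd200 lower with butyrate, and the intervals of Ccr7 overlap around −2.08 and −2.01.

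The inhibitors were also compared directly, as 1 pair of compounds whose doses and times the labels do not give, so these differences belong to these arrays and not to the compounds at equal effect. Of the 8 genes, 4 were called higher and 2 lower with butyrate than with TSA, against 15.9% and 20.0% of all genes. Ccl22 was 0.87 ± 0.053 log2 units higher (limma adjusted p = 7.49e-06), Ccl17 0.65 ± 0.119 (adjusted p = 0.00235), Fscn1 0.62 ± 0.058 (adjusted p = 4.7e-05) and Cd83 0.27 ± 0.041 (adjusted p = 8.22e-04). Cd200 was lower by a log2 difference of −0.48 ± 0.059 (adjusted p = 2.19e-04) and Marcks by −0.33 ± 0.080 (adjusted p = 0.0101). Ccr7 differed by 0.07 (95% interval −0.04 to 0.17; limma adjusted p = 0.299) and Il4i1 by −0.20 (−0.38 to −0.03; adjusted p = 0.069). The Il4i1 difference was called with a further quantile normalization (−0.28, limma adjusted p = 0.0252), with hybridization spike-ins (−0.57, adjusted p = 4.88e-05) and with poly-A spike-ins (−0.56, adjusted p = 0.0265). Of the 4 Fscn1 probe sets, 1 was called in this comparison, the brightest, and the others were higher by 0.14 to 0.17 and not called. The mean of the 4 was 0.27 higher (limma adjusted p = 9.16e-04). Of all 16 probe sets, 6 were called lower with butyrate than with TSA (17.0% of all probe sets), 5 of Marcks and that of Cd200.

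These directions rest partly on how the arrays are scaled. Bacterial transcripts added at hybridization (7 probe sets) averaged 10.78 ± 0.09 on untreated arrays (SD, n = 3), 10.84 ± 0.03 with TSA and 11.20 ± 0.05 with butyrate. Shifting the arrays to equal spike-ins took the share of higher genes among the calls for butyrate against untreated from 57.5% to 9.78%, and for butyrate against TSA from 44.2% to 1.18%; poly-A spike-ins (12 probe sets) gave 13.8% and 0.577%. The poly-A spike-ins averaged 9.10, 8.84 and 8.49 on the untreated arrays, 8.64, 8.82 and 8.96 with TSA, and 9.28, 9.10 and 9.09 with butyrate. This spread between arrays of a group enters every gene on the poly-A scale. On the hybridization scale the median change of all genes with butyrate was −0.33 against untreated and also −0.33 against TSA, and on the poly-A scale −0.26 and −0.32. With hybridization spike-ins butyrate against TSA gave 0.50 for Ccl22, 0.28 for Ccl17 and 0.26 for Fscn1, all still called (limma adjusted p = 4.01e-05, 0.0255 and 0.0153), while Cd83 turned to −0.10 (adjusted p = 0.308) and Ccr7 to −0.30 (adjusted p = 0.00464). With poly-A spike-ins Ccl22 kept its call (0.51, limma adjusted p = 0.0412), and Ccl17 (0.29, adjusted p = 0.246) and Fscn1 (0.27, adjusted p = 0.282) did not. Cd200 and Marcks were lower with butyrate on all 3 scales, by −0.84 and −0.70 with hybridization and −0.83 and −0.68 with poly-A spike-ins. A shift of whole arrays moves all genes alike, so the order of the 8 differences, from Ccl22 down to Cd200, is the same on each scale.

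**Figure D4:**
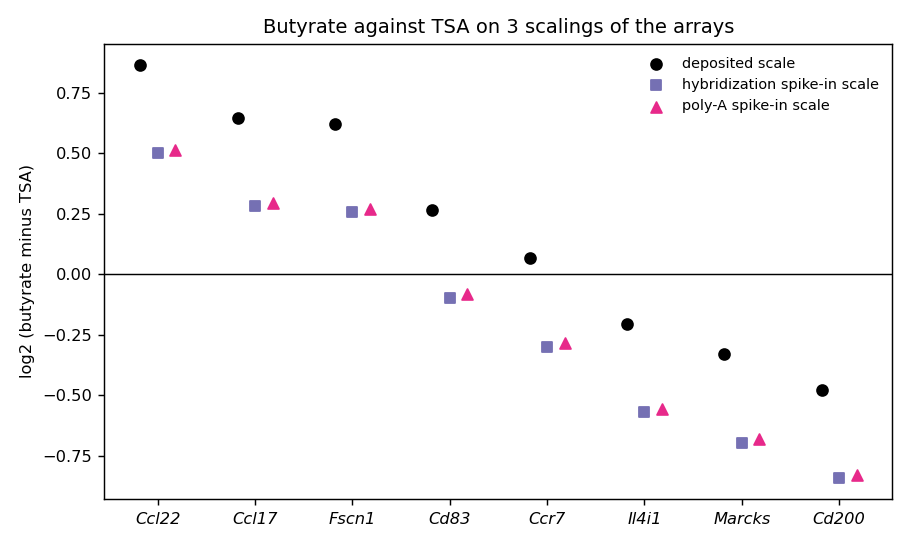
Difference between butyrate and TSA in log2 units (y axis) for the 8 genes (x axis) on the deposited scale and after shifting the arrays to equal hybridization or poly-A spike-ins. Ccl22 stays positive on all 3 (0.87, 0.50 and 0.51), Cd200 and Marcks stay negative, and Cd83 and Ccr7 change sign.

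Promoter sequences are shown for 4 of the genes that fell, Ccl22, Ccl17, Fscn1 and Cd200, because the first 3 read lower with TSA and Cd200 lower with butyrate. They are the 250 bases before a start site in RefSeq (GRCm38.p6), read 5′ to 3′ on the gene's strand, at chr8:94745434-94745683 (plus strand), chr8:94810203-94810452 (plus, a start inside the span given above), chr5:142960105-142960354 (plus) and chr16:45409054-45409303 (minus). Capitals mark matches, on either strand, to any of 7 motifs: the NF-kB consensus, AP-1 (TGANTCA), the cAMP response element (TGACGTCA), the GC box (GGGCGG), the interferon response element core, the TATA box (TATAAA) and CCAAT. The table held 5 of the 8 measured genes, Il4i1 being the fifth.
Ccl22: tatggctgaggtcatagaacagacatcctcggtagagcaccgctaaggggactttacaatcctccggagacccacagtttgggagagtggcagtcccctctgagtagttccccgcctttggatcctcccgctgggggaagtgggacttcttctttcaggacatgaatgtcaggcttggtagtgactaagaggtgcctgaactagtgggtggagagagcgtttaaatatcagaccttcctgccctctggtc
Ccl17: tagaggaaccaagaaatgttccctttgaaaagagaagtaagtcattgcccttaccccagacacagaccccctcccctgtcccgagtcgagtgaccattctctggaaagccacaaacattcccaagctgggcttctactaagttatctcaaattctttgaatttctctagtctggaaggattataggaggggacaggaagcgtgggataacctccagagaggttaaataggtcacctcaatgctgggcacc
Fscn1: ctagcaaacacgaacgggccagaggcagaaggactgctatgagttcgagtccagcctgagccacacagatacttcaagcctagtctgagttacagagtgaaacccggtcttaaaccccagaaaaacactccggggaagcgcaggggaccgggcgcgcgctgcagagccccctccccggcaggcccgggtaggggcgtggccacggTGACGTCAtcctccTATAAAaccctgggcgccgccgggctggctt
Cd200: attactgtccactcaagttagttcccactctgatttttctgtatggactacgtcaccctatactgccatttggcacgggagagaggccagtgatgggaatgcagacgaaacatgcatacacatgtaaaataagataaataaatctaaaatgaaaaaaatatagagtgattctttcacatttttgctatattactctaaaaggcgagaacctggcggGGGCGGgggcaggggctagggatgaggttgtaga

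Fscn1 had a cAMP response element 45 bases and a TATA box 31 bases before its start, motifs held by 1.55% and 12.4% of 32851 mouse promoter windows of the same length. Cd200 had a GC box 34 bases before its start, as 32.7% of windows have, and Il4i1, not printed, had one at 44 bases. Neither chemokine window held any of the 7 motifs, and the NF-kB consensus, present in 3.90% of windows, was in none of the 5. A missing match says only that these letters are not in this window. The Fscn1 window had 62.4% G+C and 18 CpG pairs, against 47.6% and 3 for Ccl17, 53.6% and 6 for Ccl22, 42.4% and 6 for Cd200, and medians of 52.4% and 6 over all windows.

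Other genes of the mature programme fell beside these. Of 30 measured genes of a list of costimulatory, regulatory and survival genes of mature DC, 24 were called lower and 2 higher with TSA (median −0.83) and 23 lower and 4 higher with butyrate (median −0.98). The shares of all genes were 21.0% lower and 26.3% higher with TSA, and 24.8% and 33.6% with butyrate. Like the gene lists below, this list was chosen with earlier results of these data known and is not independent evidence of a direction. The 4 with the largest changes were Il12b, a subunit of interleukin 12 (−4.00 with TSA and −4.29 with butyrate), Pdcd1lg2, the inhibitory ligand PD-L2 (−3.76 and −3.77), Socs2, a cytokine signalling inhibitor (−2.72 and −3.20) and Serpinb9, an inhibitor of granzyme B (−1.97 and −2.39). Cd86 (0.28) and Fas (0.16) were the 2 higher with TSA. Fas lost its call with hybridization spike-ins (limma adjusted p = 0.418), and Cd86 (adjusted p = 0.407) and Fas (adjusted p = 0.771) lost theirs with poly-A spike-ins. Cd80, Il4ra, Nr4a3 and Ccl5 were the 4 higher with butyrate, and all 4 turned negative with hybridization spike-ins. On that scale 27 of the 30 were lower and 0 higher with butyrate, beside 8448 lower and 916 higher of all 12393 genes.

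**Figure D5:**
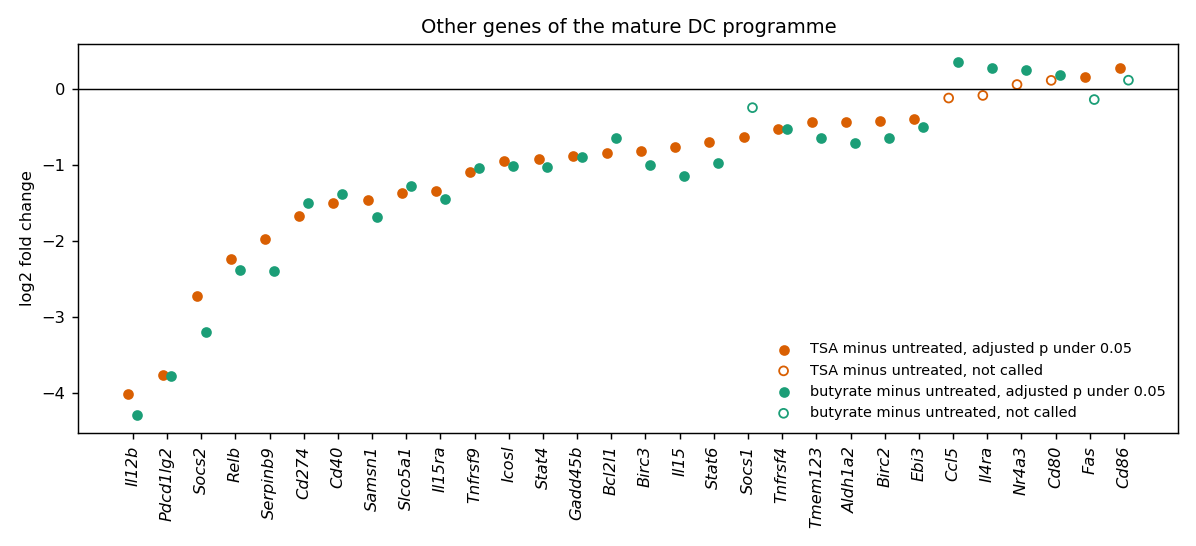
Log2 fold change (y axis) of 30 further genes of the mature DC programme (x axis, ordered by the TSA change) with TSA and butyrate, filled where called by limma at an adjusted p under 0.05 and open where not. Il12b (−4.00 and −4.29) and Pdcd1lg2 lie lowest, and Cd86 (0.28 with TSA) is among the few above 0.

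Among 18 genes of NF-kB and its upstream kinases and receptors, 16 were lower and 1 higher with TSA, and 16 lower and 2 higher with butyrate. Beside them, 21.0% of all genes were lower and 26.3% higher with TSA, and 24.8% and 33.6% with butyrate. Relb and Cd40 are also in the list of the mature programme. Relb was lower by −2.24 and −2.38 on the log2 scale, the receptor Cd40 by −1.50 and −1.38, the adaptor Traf1 by −1.40 and −1.56, and the subunit Rel by −1.05 with TSA and −1.74 with butyrate. The exceptions were the inhibitor Nfkbia, higher with both (0.24 and 0.41), and Nfkbiz, higher with butyrate (0.33); with hybridization spike-ins their butyrate values became −0.0043 and −0.0904, and Nfkbia was not called with TSA (0.18, limma adjusted p = 0.113).

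Of 30 genes of DC migration and the actin skeleton, 22 were lower and 3 higher with TSA (median −0.45), and 21 lower and 3 higher with butyrate (median −0.41). The shares over all genes were 21.0% and 26.3% with TSA, and 24.8% and 33.6% with butyrate. With poly-A spike-ins 11 of the 30 were lower and 0 higher with TSA, at a similar median of −0.44. Of all 12393 genes, 1211 were lower and 1233 higher on that scale. The largest were the membrane-bound chemokine Cxcl16 (−1.37 with TSA and −2.04 with butyrate), the myosin Myo1g (−1.18 and −1.51), profilin Pfn1 (−0.84 and −1.07) and the sheddase Adam8 (−0.82 and −1.02). Marcksl1, the paralogue of Marcks, fell more with TSA (−0.88) than with butyrate (−0.44), a difference of 0.43 (limma adjusted p = 1.45e-04) opposite in sign to that of Marcks. With hybridization spike-ins this difference shrank to 0.07 and with poly-A spike-ins to 0.08, and it was no longer called (limma adjusted p = 0.491 and 0.73), while the butyrate change of Marcksl1 became −0.86 and −0.79.

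Of 29 other regulators of DC maturation, 18 were lower and 2 higher with TSA, and 15 lower and 8 higher with butyrate. With poly-A spike-ins these counts were 11 and 1, and 16 and 2. Of all 12393 genes on that scale, 1211 were lower and 1233 higher with TSA, and 3389 and 543 with butyrate. Among all genes on the deposited scale, 21.0% were lower and 26.3% higher with TSA, and 24.8% and 33.6% with butyrate. Nr4a3 and Stat6 are also in the list of the mature programme. Etv3, an ETS family repressor, fell by 1.49 with TSA and 1.40 with butyrate, and Prdm1 (Blimp-1) by 1.20 and 1.50. The immediate early genes Nr4a1 and Fos moved the other way with butyrate, by 1.85 and 1.81. With TSA Nr4a1 rose by 0.58, and Fos was not called (0.22, limma adjusted p = 0.0904). Irf4, a transcription factor of migratory DC chosen after its values were seen, was not called with TSA (−0.0012, limma adjusted p = 0.987) and was 0.68 higher with butyrate (adjusted p = 1.52e-06), a value that shrank to 0.26 with hybridization spike-ins (adjusted p = 0.0129) and to 0.34, not called, with poly-A spike-ins (adjusted p = 0.189).

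Among the partners of these genes, Ccr4, Cd200r1 and Ackr4 were dim here, below the median of gene means on these arrays (7.12). Ccr4, the receptor for Ccl17 and Ccl22, was at 4.81 in untreated cells and not called with either inhibitor (0.09 and 0.14), but was called lower with butyrate with hybridization spike-ins (−0.28, limma adjusted p = 0.0198). Cd200r1, the receptor for Cd200, was at 6.77 and fell with butyrate by 0.44 (limma adjusted p = 0.00275), and by 0.86 with hybridization and 0.78 with poly-A spike-ins. The scavenger receptor Ackr4, which clears Ccr7 ligands, was at 5.43 and higher with butyrate by 0.32 (adjusted p = 0.0453), with arrays that overlapped the untreated ones and a value of −0.0998 with hybridization spike-ins. Dpp4, a protease that trims chemokines including Ccl22, fell by 0.93 with TSA and by 1.36 with butyrate.

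The genes whose level followed Ccr7 most closely over the 9 arrays, among 1037 genes whose group means spanned at least 1 log2 unit, were Fabp5, Cxcl2, Ppbp, Cd99 and Serpinb9b (Pearson r from 0.9983 to 0.9994). Of the 1037 genes, 83 had r over 0.99 with Ccr7, 153 with Cd200, 14 with Ccl22, 4 with Fscn1 and 0 with Ccl17, Cd83, Marcks or Il4i1. For the mean of the 8 standardised profiles the closest were Apoe, Slc11a1, Pfkfb3, Abcc2 and Klf6 (r from 0.9956 to 0.9980). Among the members, Ccl22 and Fscn1 had r = 0.993 and Cd83 and Marcks r = 0.497. These are descriptions over arrays that share 3 groups.

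Ccr7, Cd83 and Cd200 are also made by B and T cells, and markers of other cells in the selected spleen preparation were read beside them. With TSA 5 of 9 B cell markers and 4 of 9 T cell markers fell and 0 rose, and with butyrate 2 and 1 fell, beside 21.0% and 24.8% of all genes called lower. With hybridization spike-ins 8 of the B cell and 9 of the T cell markers fell with butyrate, and with poly-A spike-ins 1 of each fell with TSA and 4 and 2 with butyrate. Of all 12393 genes, 8448 were called lower with butyrate on the hybridization scale. On the poly-A scale 1211 were lower with TSA and 3389 with butyrate. The summed B cell markers ranged from 10.17 to 10.22 (log2) on untreated arrays, 9.64 to 9.76 with TSA and 9.86 to 10.02 with butyrate, and the T cell markers from 9.62 to 9.76, 9.37 to 9.44 and 9.53 to 9.56. In untreated cells the 9 B cell markers lay between 4.79 (Pax5) and 9.19 (Ms4a1) and the 9 T cell markers between 3.97 (Trat1) and 7.42 (Cd3e). Of 12 macrophage and monocyte markers 11 fell and 1 rose with TSA, and 10 fell and 0 rose with butyrate. Their sums ran from 12.75 to 12.84, 11.81 to 11.94 and 11.51 to 11.70. Of 9 neutrophil markers 7 fell and 0 rose with TSA, and 6 fell and 2 rose with butyrate (9 fell with butyrate with hybridization spike-ins). Of 8 markers of conventional DC, 5 fell with TSA and 4 with butyrate, among them the CD11c gene Itgax (−0.99 and −0.74). The sums ran from 16.44 to 16.47, 16.42 to 16.45 and 16.33 to 16.35. Such sums follow the brightest markers. The mean log2 level of these 8 ran from 12.10 to 12.15 untreated, 11.79 to 11.80 with TSA and 11.69 to 11.73 with butyrate. RNA integrity, read from Actb as its 3′ minus 5′ probe set level, stood at 0.43 ± 0.07 in untreated cells (SD, n = 3), at 0.64 ± 0.04 with TSA and at 0.68 ± 0.04 with butyrate. What part other cells and RNA integrity have in the falls was not tested.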

How the data were processed

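Per the submitters' processing notes the authors used RMA, which gives log2 levels; their software, its version and the probe set files are not named in the labels. The deposited log2 table holds 22690 probe sets for 9 arrays, with medians from 6.70 to 6.75 and values from 3.03 to 15.19. Dim probe sets sit near a floor, and 3 arrays per group limit the precision. No pair of arrays held identical values.

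The platform annotation gave 20380 probe sets 1 symbol, 691 several and 1555 none; 64 were Affymetrix controls. For each of 12393 genes the brightest of its single-symbol probe sets was used. Group means were estimated from the 9 arrays together (limma 3.58.1, R 4.3.3; lmFit, then eBayes, with 6 residual and 3.9 prior degrees of freedom), and p-values were adjusted by Benjamini-Hochberg over all genes of a comparison. All probe sets of a gene were read from the same fit over 22626 probe sets. The procedure was tested on simulated data.

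All members are named whatever their value, and up to 4 called genes of each list with the largest changes against untreated. The closest genes were the 5 with the highest r. Single exceptions were named after their values were seen: Cd86, Fas, Cd80, Il4ra, Nr4a3, Ccl5, Nfkbia, Nfkbiz, Ccr4, Irf4, Cacnb1, Cacnb2 and Cacnb4, and for the B and T cell markers the dimmest and brightest of each list. The members and lists were chosen with earlier results of these data known. Alternatives were the mean of all probe sets, a filter at the median level, 4 scalings, 2-group fits, another variance prior, the replicate block and leaving out each array.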

Additional observations from a re-analysis of the deposited data

How the results depend on the processing

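Every fall of Ccr7, Ccl22, Ccl17, Fscn1, Cd200 and Marcks against untreated kept its direction and its call under all alternatives tried (Ccl17 lies below the median level and was not tested with that filter); Cd83 lost its call with TSA on the poly-A spike-in scale (−0.45, limma adjusted p = 0.101). The 1 gene higher with TSA, Il4i1, was not called with the filter at the median level (which it does not pass), a further quantile normalization, equal medians, either spike-in scale, 2-group fits or the trended prior, giving 0 genes each, and 0 to 1 when an array was left out. Its butyrate value turned to −0.09, −0.0104, −0.412 and −0.338 with quantile normalization, equal medians, hybridization and poly-A spike-ins, the third of these called (limma adjusted p = 0.00118), and ranged from −0.0365 to 0.0699 when an array was left out. Of the 16 probe sets, 0 to 1 were higher with TSA when an array was left out. For butyrate against TSA, 1 gene and 1 probe set stayed higher with poly-A spike-ins, and 4 genes were lower with hybridization spike-ins. Ccr7 turned to −0.299 and −0.285 and Cd83 to −0.0979 and −0.0838 on the 2 spike-in scales. Over all 12393 genes, the hybridization scale called 916 higher and 8448 lower with butyrate and 110 and 9202 for butyrate against TSA. Poly-A spike-ins called 543 and 17 higher in those comparisons, and 1233 higher and 1211 lower with TSA. The level filter, which tested only 6196 genes, called 2472 higher with butyrate and 1284 for butyrate against TSA. On the deposited scale 4166 were higher and 3075 lower with butyrate, 1968 and 2480 for butyrate against TSA, and 3262 and 2604 with TSA. The groups share replicate numbers. Of 9 same-numbered pairs of arrays, 2 had deviations correlated above 0.1 (r from −0.12 to 0.21). Of 18 differently numbered pairs, 2 did (r from −0.246 to 0.157). With so few arrays per group, these correlations cannot decide whether arrays of the same number were paired. On the hybridization scale all 16 probe sets were called lower with butyrate. With the replicate block, 7 members were lower with TSA and 7 with butyrate, and no member's call changed. The causes of these shifts were not tested.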

Other observations

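Relatives of Cacnb3, Nudt17, Marcks and Fscn1, and enzymes that, like Il4i1, oxidise amino acids or amines, were measured, with Marcksl1 of the migration genes among them. Of these 31 genes, 10 were called lower and 6 higher with TSA, and 10 lower and 8 higher with butyrate, by limma at an adjusted p under 0.05, beside 47.3% and 58.4% of all genes called in either direction. On the hybridization spike-in scale 24 were lower and 1 higher with butyrate, beside 8448 lower and 916 higher of all 12393 genes. Ido1, which degrades tryptophan in DC, read 8.68 in untreated cells and changed by −2.65 ± 0.127 with TSA (limma adjusted p = 7.54e-08) and by −2.89 ± 0.127 with butyrate (adjusted p = 2.79e-08), whereas the dim Ido2 fell by 0.63 and 0.47 (by 0.89 with butyrate with hybridization spike-ins). Nudt22, a nudix hydrolase that cleaves UDP-sugars, rose by 1.04 with TSA and 1.32 with butyrate. Of the calcium channel beta subunits, Cacnb1, Cacnb2 and Cacnb4 lay at 5.83, 3.49 and 4.33 in untreated cells, near the floor.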
